A study of Mus musculus with 9 samples.

Results

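Long noncoding RNAs (lncRNAs) that are abundant in nuclei or that host small nucleolar RNAs (snoRNAs) were followed in mouse duodenal organoids that overexpressed human HIF2 or HIF1. The members were chosen by name: Neat1, Malat1, H19, Gas5, Snhg1, Snhg3, Snhg12 and Kcnq1ot1. Of these 8 symbols, 7 had a row among the 46517 genes of each table. Snhg1 had none under its symbol or its Ensembl identifier. The organoids were grown from duodenal crypts of wild-type C57BL/6J mice, kept at 5% oxygen, and transduced with adenovirus as dissociated cells. Both before and after transduction the medium held Wnt3a, R-spondin and noggin from L-WRN cells, with inhibitors of ROCK and of the TGF-β receptor, in all groups. Ad-GFP, which carries only green fluorescent protein, was the control (3 cultures), and Ad-hHIF2 (3 cultures) and Ad-hHIF1 (3 cultures) carried human HIF2 or HIF1 with proline-to-alanine changes that keep the protein from VHL-mediated degradation. All 9 cultures had thus received a virus, at 50 particles per cell, and RNA was collected about 72 hours later, so that expression of the transgenes was transient. The study calls the cultures of the Ad-hHIF2 and Ad-GFP groups biological replicates. Whether the sequenced cultures of a group came from separate animals is not stated for them, so p-values measure the spread between these cultures.

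Neat1 is the scaffold of paraspeckles, nuclear bodies that hold RNA-binding proteins such as SFPQ and NONO, and Malat1 lies in nuclear speckles, where splicing factors gather. Kcnq1ot1 is an unspliced RNA read from the paternal chromosome, opposite in strand to Kcnq1, and silences the imprinted genes around it. H19 is a maternally expressed imprinted RNA that is high in fetal tissue and falls after birth. Gas5, Snhg1, Snhg3 and Snhg12 are spliced RNAs whose introns carry snoRNAs, the guides for methylation and pseudouridylation of ribosomal RNA. Their spliced transcripts are removed largely by nonsense-mediated decay, and their start sites often begin with a run of pyrimidines, the 5′TOP motif that ribosomal protein genes also have.

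Total expected counts ran from 21722618 to 51119041 per library. Reads of Epas1, the mouse gene for HIF2α, to which reads of the human transgene can be assigned, stood at 604 to 758 CPM (counts scaled to library size, here with TMM factors) in Ad-hHIF2 libraries and at 1.47 to 2.20 in Ad-GFP libraries. Hif1a stood at 299 to 319 CPM in Ad-hHIF1 libraries and at 198 to 251 in Ad-GFP libraries, a difference that did not pass the test (log2 difference 0.49, adjusted p = 0.486, edgeR). The 10 markers of intestinal epithelium summed to between 3248 and 3779 CPM in all libraries. Most of this sum was Krt8, Krt18 and Krt19, which were at 764 to 1358 CPM. Epcam was at only 1.42 to 3.80 CPM, and Vil1, Cldn7, Cdx2 and Pdx1 were at 1.31 to 9.67 CPM. Between Ad-hHIF2 and Ad-GFP, 2 of these 10 markers rose (Gata4, from 21.4 to 32.1 CPM, and Cdh1, from 218 to 316 CPM) and 1 fell (Epcam, from 2.94 to 1.68 CPM), where 29.5% of all genes passed. The 5 stem cell markers summed to between 0.366 and 2.003 CPM, and Olfm4 had no count in Ad-GFP and Ad-hHIF2 libraries. The 12 markers of mesenchyme, endothelium, muscle and immune cells summed to between 13.2 and 19.4 CPM in Ad-GFP, 10.2 and 13.0 in Ad-hHIF2, and 10.6 and 21.3 in Ad-hHIF1 libraries. The background was measured as CPM per kb of length, scaled to total counts, in 1858 olfactory, vomeronasal and taste receptor genes, most of which are known for use in sensory cells, although some taste receptors also work in gut epithelium. It was 0.0455 to 0.0785 in Ad-GFP, 0.0234 to 0.0400 in Ad-hHIF2 and 0.0350 to 0.245 in Ad-hHIF1 libraries. Ad-hHIF1 replicate 3 had the highest background, and 15.96% of its counts lay in the satellite-like genes Gm10800 and Gm26870. Ad-hHIF2 replicate 1 stood apart in scaling, with a TMM factor of 1.31 against 0.907 to 1.03 in the other libraries.

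Per unit of length, Malat1 was the highest of the 7 lncRNAs with a row in every library, at 430.22 to 799 TPM (RSEM's length-scaled abundance). Gas5 followed at 83.0 to 135 TPM. Neat1 (6.78 to 16.1 TPM) and Snhg12 (5.38 to 10.6 TPM) were neighbours whose ranges overlapped, and in Ad-hHIF1 replicate 3 Snhg12 was above Neat1. Snhg3 was at 1.37 to 2.90 TPM, Kcnq1ot1 at 0.12 to 0.36 TPM and H19 at 0 to 0.03 TPM. The ranges of the other neighbours in this order did not overlap. Reads rank the genes otherwise, since long transcripts collect more of them: by mean CPM on total counts Malat1 ranked 22, Neat1 102, Gas5 232, Kcnq1ot1 682, Snhg12 3609, Snhg3 9886 and H19 16921 of the 46517 genes. The 7SL RNAs, which are short and abundant, took 12.5% to 21.8% of counts, and TPM shares a fixed sum with them, so levels in TPM are given for the order of genes within a library, and tests between libraries on TPM are given only as alternatives.

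Weighed against the receptor background of its own library, each lncRNA except H19 stood clearly above it (plot of times over background). Malat1 had 15053 to 180940 times the reads per kb of the receptor genes. The factor was 3053 to 30511 for Gas5, 204 to 3643 for Neat1, 213 to 2402 for Snhg12 and 45.0 to 656 for Snhg3. For the 84395-base model of Kcnq1ot1 the factor was only 9.94 to 46.6, so that background reads could make up to 10.1% of its count, in Ad-hHIF1 replicate 3. For Snhg3 the same share reached at most 2.22%, and for Gas5, Malat1, Neat1 and Snhg12 at most 0.491%. H19 stood at 0.483 to 3.44 times the background, so the data go against calling it abundant here.

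**Figure D1:**
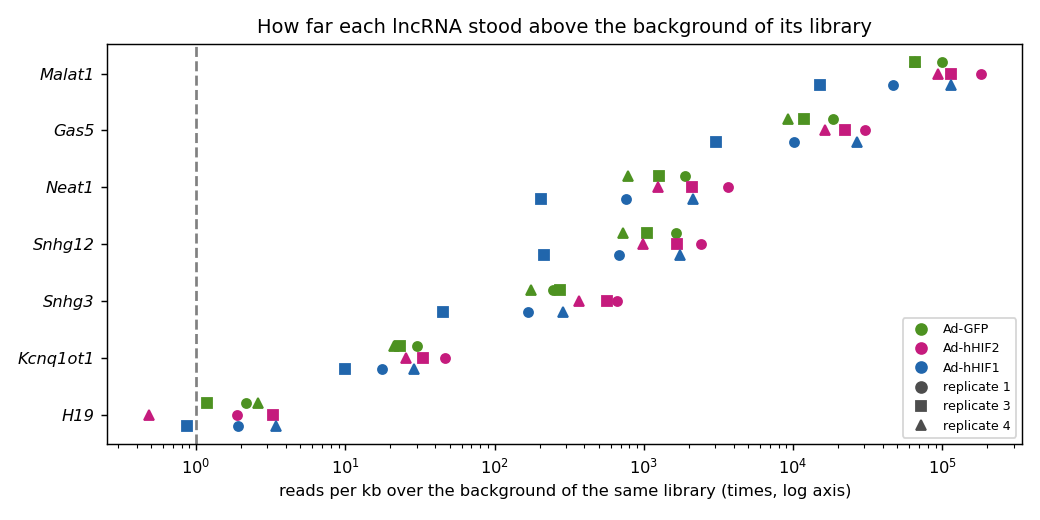
Reads per kb of each lncRNA divided by reads per kb of the receptor genes in the same library (horizontal log axis, times), with 1 point per library, coloured by group and shaped by replicate. Malat1 lies at 15053 times or more in every library, Kcnq1ot1 between 9.94 and 46.6 times, and H19 around the dashed line at 1.

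**Figure D2:**
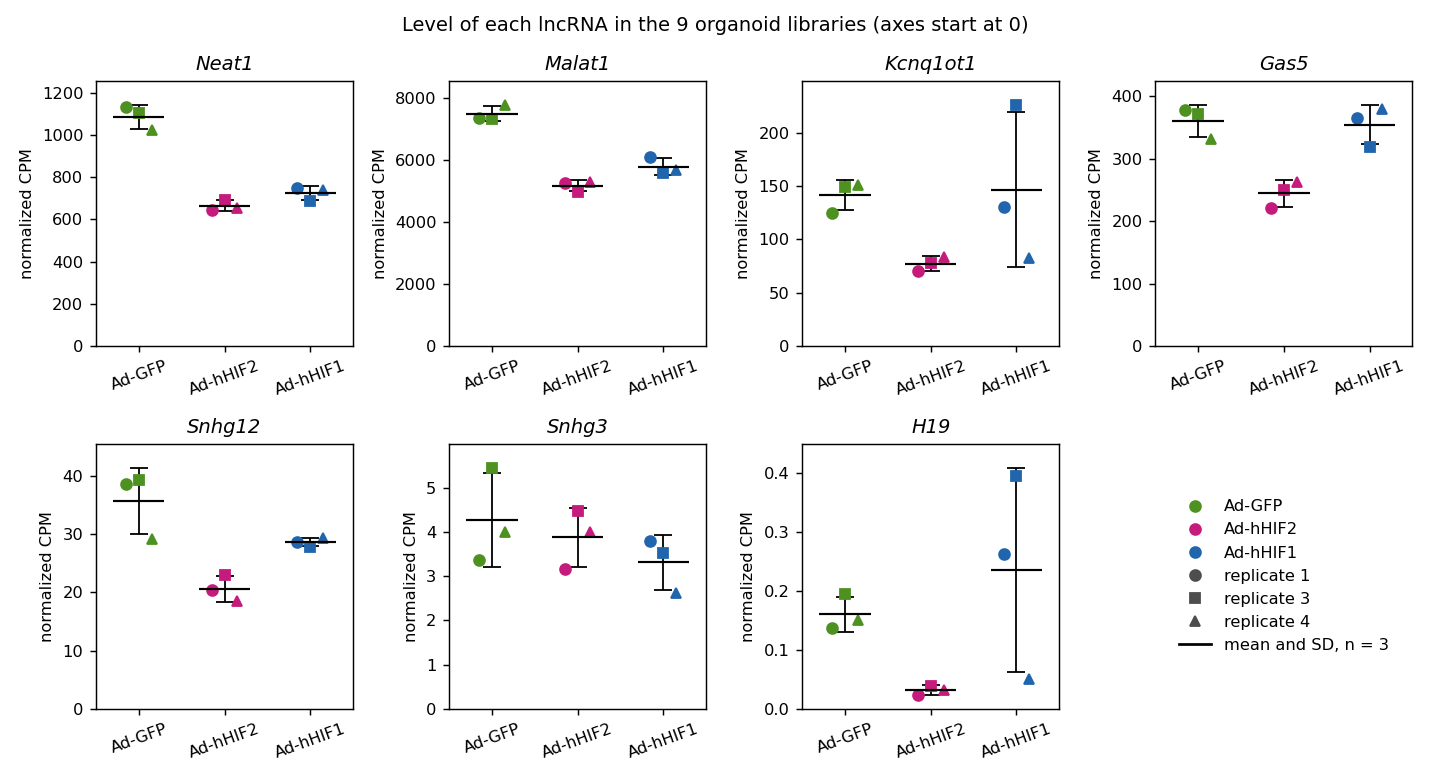
Normalized CPM of each lncRNA (vertical axes from 0) in the 9 libraries, with the mean and SD of 3 libraries per group. All 3 Ad-hHIF2 points lie below all 3 Ad-GFP points for Neat1, Malat1, Kcnq1ot1, Gas5, Snhg12 and H19, and Snhg3 overlaps.

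Neat1 was lower in Ad-hHIF2 than in Ad-GFP organoids. Its gene lies at chr19:5824708-5845478 on the minus strand of GRCm38 (GENCODE M21), as a lincRNA of 20771 bases. Neat1 was at 1130, 1102 and 1021 CPM in the Ad-GFP libraries of replicates 1, 3 and 4. In Ad-hHIF2 libraries it was at 645, 693 and 655 CPM, and in Ad-hHIF1 libraries at 746, 687 and 741 CPM. Every HIF library was thus below every control library, as for 22.4% of all genes with Ad-hHIF2 and 9.02% with Ad-hHIF1. Neat1 averaged 664 ± 25.4 CPM (SD, n = 3) with Ad-hHIF2 and 1084 ± 56.7 CPM (SD, n = 3) with Ad-GFP, a log2 difference of -0.70 with an SE of 0.083 (adjusted p = 0.00046 over all genes, edgeR). This call was lost in 3 of 19 alternatives: the adjusted p for Neat1 was 0.058 with total counts as library size, 0.885 on log2(TPM + 1) and 0.870 on log2(TPM + 0.1). With Ad-hHIF1 it averaged 725 ± 32.5 CPM (SD, n = 3). This log2 difference of -0.58 with an SE of 0.082 did not pass (adjusted p = 0.195, edgeR). That call depended on the fit: the adjusted p for Neat1 was 0.042 when all 9 libraries shared 1 edgeR fit, 0.00011 with no count filter and 1.5e-13 in DESeq2, and over all alternatives it ran from 1.5e-13 to 0.803. The direct difference between Ad-hHIF2 and Ad-hHIF1 was -0.13 on the log2 scale with an SE of 0.076 (adjusted p = 0.263, edgeR).

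Neat1 is made as a long and a short transcript, and the long one is needed to build paraspeckles. RSEM reports an abundance-weighted length for each gene, which bounds the share of long molecules given the annotated lengths of 20771, 3004 and 1030 bases. In Ad-GFP libraries that share lay between 51.7% and 56.5%, 48.7% and 53.9%, and 69.8% and 72.8%. In Ad-hHIF2 libraries it lay between 39.7% and 45.7%, 50.04% and 55.0%, and 59.4% and 63.5%. In Ad-hHIF1 libraries it lay between 46.4% and 51.8%, 54.3% and 58.9%, and 40.8% and 46.7%. The bounds of the groups overlapped, so no difference in the share was detectable at this spread. These bounds rest on RSEM's division of reads between nested transcripts, which cannot place a read that lies in their common 5′ part.

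Malat1 was also lower with Ad-hHIF2. The gene lies at chr19:5795690-5802672 on the minus strand, near Neat1 on the same chromosome. It was at 7358, 7334 and 7769 CPM in Ad-GFP, 5262, 4964 and 5284 CPM in Ad-hHIF2 and 6088, 5593 and 5671 CPM in Ad-hHIF1 libraries. All HIF libraries were below all control libraries, as for 22.4% of all genes with Ad-hHIF2 and 9.02% with Ad-hHIF1. Those of Ad-hHIF2 were also below those of Ad-hHIF1, as they were for 19.1% of all genes. Malat1 averaged 5169.8 ± 179 CPM (SD, n = 3) with Ad-hHIF2 against 7487 ± 245 (SD, n = 3) with Ad-GFP, which made a log2 difference of -0.53 with an SE of 0.085 (adjusted p = 0.0023, edgeR). With Ad-hHIF1 it averaged 5784 ± 266 CPM (SD, n = 3), and the log2 difference of -0.37 (SE 0.081) had an adjusted p of 0.486 in edgeR and 6.1e-06 in DESeq2, within a range of 6.1e-06 to 0.803 over the alternatives. Between both HIFs the log2 difference was -0.16 with an SE of 0.076 (adjusted p = 0.148, edgeR), and DESeq2 gave Malat1 an adjusted p of 0.018, within a range of 0.018 to 1.0 over the alternatives. RSEM credited Malat1 with a weighted length of 1523 to 1768 bases, although the annotated gene spans 6983, so that its TPM depends on how reads were divided between short and long models.

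Kcnq1ot1 fell with Ad-hHIF2, and its lowest and highest levels were in the libraries with the lowest and highest background. The gene lies at chr7:143203458-143296549 on the minus strand, inside and opposite to Kcnq1, and the tables give it a model of 84395 bases. It was at 125, 149 and 151 CPM in Ad-GFP libraries. In Ad-hHIF2 libraries it was lower without overlap, at 70.0, 78.1 and 83.8 CPM, as were 22.4% of all genes. In Ad-hHIF1 libraries it was at 131, 226 and 82.9 CPM, a wider spread than in the other groups. Kcnq1ot1 averaged 77.3 ± 6.90 CPM (SD, n = 3) with Ad-hHIF2 and 142 ± 14.4 (SD, n = 3) with Ad-GFP, a log2 difference of -0.87 with an SE of 0.104 (adjusted p = 0.00048, edgeR). The library with the highest receptor background, Ad-hHIF1 replicate 3 (0.245 CPM per kb), had the highest Kcnq1ot1 level, and Ad-hHIF2 replicate 1, with the lowest background (0.0234), had the lowest. Ad-hHIF1 replicate 4, with 0.0350, was close to the Ad-hHIF2 libraries in both values (plot of level against background). The order was not the same throughout, since Ad-hHIF1 replicate 1 had the second highest background (0.0894) but less Kcnq1ot1 (131 CPM) than Ad-GFP replicates 3 and 4. With the background as a covariate over the 9 libraries, the Kcnq1ot1 difference between Ad-hHIF2 and Ad-GFP was -0.33 on the log2 scale (adjusted p = 0.020, edgeR), while subtracting the background reads expected for its length left -0.89 (adjusted p = 0.00047). Over all alternatives the adjusted p for Kcnq1ot1 in this comparison ran from 7.2e-15 to 0.55. The part of unspliced or genomic reads in the Kcnq1ot1 count was not tested, and the strandedness of the libraries is not given in the sources used here.

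Kcnq1ot1 did not differ between Ad-hHIF1 (147 ± 72.9 CPM, SD, n = 3) and Ad-GFP beyond that spread (0.047 on the log2 scale with an SE of 0.308, adjusted p = 0.971, edgeR), and without Ad-hHIF1 replicate 3 the value was -0.41 (adjusted p = 0.694). Between both HIFs it was -0.92 with an SE of 0.28 (adjusted p = 0.035, edgeR). That difference was -0.48 (adjusted p = 0.073) without Ad-hHIF1 replicate 3 and -0.0076 (adjusted p = 0.974) with the background covariate. The call was also lost without Ad-hHIF1 replicate 1 (adjusted p = 0.054) and without Ad-hHIF2 replicate 1 (0.117), replicate 3 (0.086) or replicate 4 (0.077). The adjusted p ran from 2.8e-15 to 0.974 over all alternatives.

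**Figure D3:**
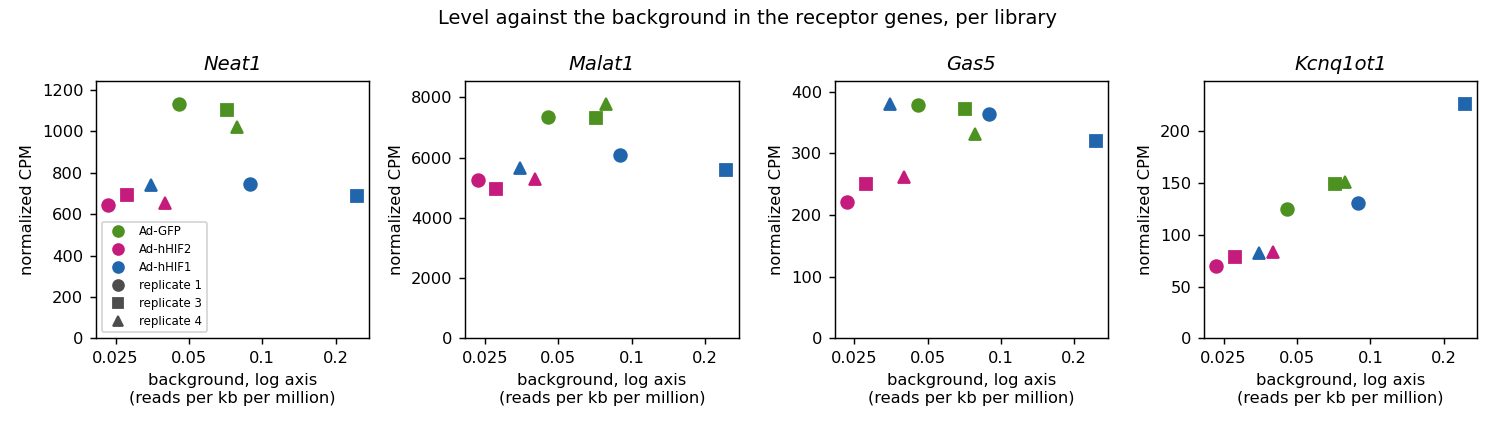
Normalized CPM of 4 lncRNAs (vertical axes from 0) against the background in the receptor genes of the same library (horizontal log axis, CPM per kb), with 1 point per library. Kcnq1ot1 is lowest, at 70.0 CPM, in the library with the lowest background and highest, at 226 CPM, in the library with the highest, whereas Neat1 is at 687 CPM in the latter.

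HIF proteins bind the core letters ACGTG or GCGTG next to their targets. Promoter windows of 300 bases (250 before to 50 after the start, RefSeq on GRCm38.p6) were at hand for 6 of the 8 lncRNAs, as 7 windows, of which 5 held ACGTG or GCGTG on either strand. Of all 32851 windows of this length, 43.8% held at least 1 of these motifs, 19.6% ACGTG and 32.4% GCGTG. Of 18 windows of 16 other snoRNA-host lncRNAs, 17 held at least 1 of them. Among the lncRNAs that were lower with Ad-hHIF2, Malat1 and Kcnq1ot1 held ACGTG, Gas5 held GCGTG in 1 of its 2 windows, and Snhg12 held neither. Snhg3, which did not pass the test, held GCGTG, and Snhg1, which has no row, held both. The windows with ACGTG of lncRNAs that fell are shown (capitals, which mark the motif on either strand, CACGT being its reverse complement). In Malat1 ACGTG began 43 bases before the start, and in Kcnq1ot1 44 bases before and 18 bases after it.
Malat1 promoter, chr19:5802623-5802922, minus strand: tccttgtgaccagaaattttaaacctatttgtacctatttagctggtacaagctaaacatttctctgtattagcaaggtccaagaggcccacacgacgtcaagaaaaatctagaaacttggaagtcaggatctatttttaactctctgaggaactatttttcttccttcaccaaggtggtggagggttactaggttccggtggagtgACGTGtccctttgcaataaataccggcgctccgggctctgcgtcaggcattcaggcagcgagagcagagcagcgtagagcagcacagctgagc
Kcnq1ot1 promoter, chr7:143296498-143296797, minus strand: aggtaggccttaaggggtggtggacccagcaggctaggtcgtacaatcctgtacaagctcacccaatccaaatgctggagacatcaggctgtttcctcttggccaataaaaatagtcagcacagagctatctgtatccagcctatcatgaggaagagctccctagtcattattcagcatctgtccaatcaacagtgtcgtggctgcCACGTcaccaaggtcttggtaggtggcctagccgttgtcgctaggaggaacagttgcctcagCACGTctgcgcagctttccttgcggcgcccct
A match of this kind describes the letters only, and binding was not measured in these data.

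Among the snoRNA hosts, Gas5 was lower with Ad-hHIF2 and close to the control with Ad-hHIF1. Gas5, named for its rise in growth-arrested cells, lies at chr1:161034422-161038539 on the plus strand and overlaps Zbtb37 on the other strand. It was at 378, 371 and 331 CPM in Ad-GFP libraries, at 221, 250.2 and 262 CPM in Ad-hHIF2 libraries and at 364, 319 and 379 CPM in Ad-hHIF1 libraries. The Ad-hHIF2 libraries lay below all Ad-GFP libraries, as for 22.4% of all genes, and below all Ad-hHIF1 libraries, as for 19.1%. The Ad-hHIF1 libraries overlapped the controls. The means were 244 ± 21.3 CPM (SD, n = 3) with Ad-hHIF2, 360.1 ± 25.1 (SD, n = 3) with Ad-GFP and 354 ± 31.3 (SD, n = 3) with Ad-hHIF1. Gas5 fell by 0.56 on the log2 scale against Ad-GFP with an SE of 0.097 (adjusted p = 0.0034, edgeR) and by 0.54 against Ad-hHIF1 with an SE of 0.098 (adjusted p = 0.0028, edgeR). Each of these calls was lost in 3 of 19 alternatives: the adjusted p for Gas5 was 0.229 and 0.125 with total counts, 0.917 and 0.582 on log2(TPM + 1), and 0.895 and 0.539 on log2(TPM + 0.1). Its difference between Ad-hHIF1 and Ad-GFP was -0.024 with an SE of 0.098 (adjusted p = 0.954, edgeR), and its sign turned in 7 of 19 alternatives. In 2 of these, total counts and a library size without the 20 most counted genes, the median of all genes was 0.082 and 0.030, and relative to it Gas5 stayed at -0.021 and -0.023. Zbtb37, the overlapping gene, was at 9.73 to 12.7 CPM and did not pass the test (0.012 on the log2 scale between Ad-hHIF2 and Ad-GFP, adjusted p = 0.95, edgeR).

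Snhg12 gave the same order of Ad-hHIF2 and Ad-GFP at a lower level. It lies at chr4:132308623-132311024 on the plus strand. Snhg12 was at 38.7, 39.3 and 29.2 CPM in Ad-GFP, 20.3, 23.0 and 18.5 CPM in Ad-hHIF2 and 28.6, 27.9 and 29.4 CPM in Ad-hHIF1 libraries. The Ad-hHIF2 libraries lay below all Ad-GFP libraries, as for 22.4% of all genes, and below all Ad-hHIF1 libraries, as for 19.1%. Snhg12 averaged 20.6 ± 2.27 CPM (SD, n = 3) with Ad-hHIF2 and 35.7 ± 5.67 (SD, n = 3) with Ad-GFP, a log2 difference of -0.79 with an SE of 0.127 (adjusted p = 0.0022, edgeR). Against Ad-hHIF1, at 28.6 ± 0.741 CPM (SD, n = 3), the log2 difference was -0.47 with an SE of 0.119 (adjusted p = 0.015, edgeR), and it did not pass without Ad-hHIF2 replicate 1 (adjusted p = 0.062) or replicate 4 (0.070), within a range of 0.00044 to 0.734 over the alternatives. Ad-hHIF1 and Ad-GFP overlapped, with a log2 difference of -0.32 with an SE of 0.117 (adjusted p = 0.534, edgeR).

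Snhg3 did not pass the test in any comparison. It lies at chr4:132348014-132353686 on the minus strand, where it overlaps Rcc1 on the same strand and Gm17300 on the other, so that its reads can be shared with Rcc1. With 80.1 to 228 expected counts per library it was the least covered of the tested lncRNAs. It was at 3.35, 5.45 and 4.003 CPM in Ad-GFP, 3.16, 4.48 and 4.01 CPM in Ad-hHIF2 and 3.80, 3.52 and 2.62 CPM in Ad-hHIF1 libraries, and all groups overlapped. The log2 difference was -0.14 for Ad-hHIF2 against Ad-GFP (SE 0.228, adjusted p = 0.691, edgeR), with a sign that turned in 6 of 19 alternatives. Relative to the median of all genes, Snhg3 stayed negative in 2 of these, at -0.15 with total counts and -0.041 on log2(TPM + 0.1). It was -0.37 for Ad-hHIF1 against Ad-GFP (SE 0.254, adjusted p = 0.692) and 0.23 for Ad-hHIF2 against Ad-hHIF1 (SE 0.240, adjusted p = 0.531).

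The start regions of the hosts are shown for the presence or absence of such pyrimidine runs. Each line gives 20 bases before the RefSeq start and 30 from it, with the longest run of C followed by C or T that began within 5 bases of the start in capitals. A run of at least 5 was found in 3 of the 7 windows, which include those of Malat1 and Kcnq1ot1, no snoRNA hosts. These 3 windows were of the hosts Gas5, Snhg12 and Snhg3. The share was 18.35% of all windows, and 8 of 18 windows of 16 other snoRNA hosts held such a run. Gas5 has another RefSeq window (chr1:161034351-161034650) with a run of 3.
Gas5 start, chr1:161035146-161035195, plus strand: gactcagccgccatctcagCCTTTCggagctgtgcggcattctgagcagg
Snhg12 start, chr4:132308658-132308707, plus strand: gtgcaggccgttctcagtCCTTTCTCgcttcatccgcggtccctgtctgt
Snhg3 start, chr4:132353657-132353706, minus strand: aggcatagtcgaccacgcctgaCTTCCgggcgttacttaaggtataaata
Snhg1 start, chr19:8723467-8723516, plus strand: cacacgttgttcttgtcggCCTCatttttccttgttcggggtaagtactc
Malat1 start, chr19:5802643-5802692, minus strand: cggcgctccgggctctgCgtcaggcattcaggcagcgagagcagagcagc
Snhg12 had the longest run, of 8, and Gas5 one of 6. Snhg3 had a run of 5 and Snhg1 one of 4, and Malat1, shown as an RNA that hosts no snoRNA, had none beyond 1 base. Translation and decay, on which 5′TOP runs act, were not measured.

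The snoRNAs inside the hosts were counted as genes of their own, and 1 of the 6 that could be tested in Ad-hHIF2 against Ad-GFP fell, as did 13.6% of all genes. Snora44, an H/ACA snoRNA inside Snhg12 (chr4:132309941-132310069), was at 132, 143 and 269.5 CPM in Ad-GFP libraries and at 60.5, 80.6 and 123 CPM in Ad-hHIF2 libraries. These groups did not overlap, and the log2 difference was -1.04 with an SE of 0.319 (adjusted p = 0.039, edgeR). In Ad-hHIF1 libraries Snora44 was at 119, 46.6 and 133 CPM, which overlapped both other groups. Its log2 difference was -0.86 for Ad-hHIF1 against Ad-GFP (adjusted p = 0.599, edgeR). It was -0.18 for Ad-hHIF2 against Ad-hHIF1 (adjusted p = 0.789, edgeR). Snora73a and Snora73b, inside Snhg3, summed to 1479, 1370.0 and 1107 CPM in Ad-GFP and 706, 1728 and 1186 CPM in Ad-hHIF2 libraries, far above the host itself. They are near-identical copies, so that reads between them are divided by RSEM, and neither passed (log2 differences -0.16 and -0.080, adjusted p = 0.68 and 0.86, edgeR). None of the 10 snoRNA genes inside Gas5 had enough reads to be tested, although Gas5 itself had at least 6629 counts per library. Snhg1 itself has no row, and of 8 snoRNAs inside it (gene at chr19:8723475-8726443, plus strand) only Snord22 had counts, at 46.0, 38.5 and 22.4 CPM in Ad-GFP, 24.0, 146 and 40.5 CPM in Ad-hHIF2 and 45.2, 15.4 and 46.4 CPM in Ad-hHIF1 libraries. Snord22 overlapped between Ad-hHIF2 and Ad-GFP (0.98 on the log2 scale with an SE of 0.584, adjusted p = 0.241, edgeR). How well short RNAs were kept in library preparation is not given in the sources used here.

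H19 was at or near the background in all 9 libraries and did not pass the count filter. It lies at chr7:142575529-142578143 on the minus strand and hosts Mir675, which had no count. H19 had 5, 7 and 3 counts in Ad-GFP, 1, 2 and 1 in Ad-hHIF2 and 9, 9 and 2 in Ad-hHIF1 libraries. Over its full length of 2286 bases, the receptor background alone would give 4.13, 6.28 and 3.90 counts in Ad-GFP, 1.78, 3.25 and 2.75 in Ad-hHIF2 and 6.95, 14.1 and 3.07 in Ad-hHIF1 libraries. The summed counts gave a ratio of 0.197 for Ad-hHIF2 over Ad-GFP (4 against 15 counts, 95% exact Clopper-Pearson interval 0.0475 to 0.618) and of 1.28 for Ad-hHIF1 over Ad-GFP (20 against 15 counts, interval 0.624 to 2.69), intervals that cover counting error only. Fitted with no count filter, which takes the spread between libraries into account, H19 did not pass for Ad-hHIF2 against Ad-GFP (log2 difference -2.19, adjusted p = 0.423, edgeR), Ad-hHIF1 against Ad-GFP (0.51, adjusted p = 0.936) or Ad-hHIF2 against Ad-hHIF1 (-2.71, adjusted p = 0.290). The low H19 counts with Ad-hHIF2 thus stood beside a lower background in the same libraries, and expression of H19 was not detectable above it at this depth.

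Across the whole list, 5 of the 6 tested lncRNAs (Neat1, Malat1, Kcnq1ot1, Gas5 and Snhg12) fell in Ad-hHIF2 against Ad-GFP organoids and none rose, by 1.44 to 1.83 times, and none of them reached a 2-fold change, which 6.73% of all genes passed. Of all 14987 genes tested, 29.5% passed in this comparison and 13.6% passed as lower. The median log2 difference was -0.63 over the 6 lncRNAs and -0.012 over all genes. Groups did not overlap for 5 of the 6, all with Ad-hHIF2 below, against 22.4% of all genes. All 5 calls held in each of the 6 fits that left out 1 library, Ad-hHIF2 replicate 1 included. The scale mattered: over all genes 2381 were called higher and 2035 lower, but 3491 and 828 with total counts as library size, 814 and 196 on log2(TPM + 1) and 899 and 210 on log2(TPM + 0.1). The median of all genes moved to 0.24, 0.12 and 0.30 on these scales, and 2 (Snhg12 and Kcnq1ot1), 0 and 0 of the lncRNAs passed. Relative to that median, the 5 lncRNAs lay at -0.87 to -0.51 with total counts, at -0.41 to -0.19 on log2(TPM + 1) and at -0.63 to -0.38 on log2(TPM + 0.1). The background and the summed mesenchyme, endothelium, muscle and immune markers were also lower in Ad-hHIF2 libraries, and of 6 of these markers tested Ptprc alone fell, from 0.769 to 0.0425 CPM. With the background as a covariate the 5 calls remained, but the log2 difference of Kcnq1ot1 went from -0.87 to -0.33. The part of the other cell types was not tested. In bulk libraries, fewer cells of a type and less RNA per cell cannot be told apart.

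Between Ad-hHIF1 and Ad-GFP organoids, which uses the same control libraries, none of the 6 lncRNAs passed in edgeR, and neither did any of the 15233 genes (0%). Before adjustment, 3 of the 6 (Neat1, Malat1 and Snhg12) and 8.59% of all genes had a p below 0.05. DESeq2 called 144 genes and 2 of the lncRNAs, Neat1 and Malat1. The median log2 difference was -0.35 over the 6 and 0.0010 over all genes. Neat1 and Malat1 were the lncRNAs whose groups did not overlap, both lower with Ad-hHIF1, and 9.02% of all genes were so placed. Between Ad-hHIF2 and Ad-hHIF1 directly, 3 of the 6 (Gas5, Snhg12 and Kcnq1ot1) were lower with Ad-hHIF2 and none was higher, where 25.8% of 15556 genes passed and 12% passed as lower. All genes split into 2137 higher and 1871 lower here, and into 2096 and 804 with total counts, 315 and 52 on log2(TPM + 1) and 381 and 79 on log2(TPM + 0.1). The median over all genes then moved to 0.17, 0.063 and 0.17, against -0.0080, and Neat1 and Malat1 turned to slightly positive values on all of these scales. Relative to those medians, Malat1 stayed negative on all 3 (-0.15, -0.061 and -0.17) and Neat1 with total counts (-0.12) and on log2(TPM + 0.1) (-0.078).

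**Figure D4:**
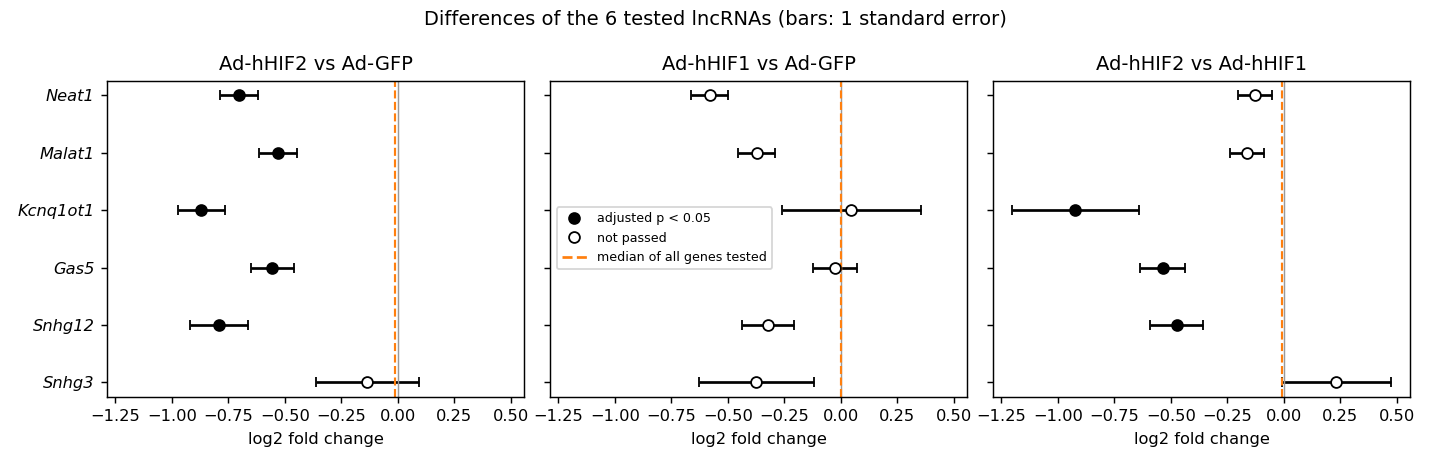
Log2 differences (horizontal axis) of the 6 tested lncRNAs in the 3 comparisons, with bars of 1 standard error, filled where the adjusted p was below 0.05, and the median of all genes as a dashed line. In Ad-hHIF2 against Ad-GFP, 5 of 6 are filled and lie between -0.87 and -0.53, and in Ad-hHIF1 against Ad-GFP none is filled.

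Other snoRNA-host lncRNAs were lower with Ad-hHIF2 as well. Of 16 tested of 18 listed, 12 fell, none rose and 4 did not pass, where 13.6% of all genes passed as lower, with a median log2 difference of -0.84 against -0.012 over all genes. Snhg17 fell from 33.6 to 17.9 CPM (log2 difference -0.90, SE 0.069, adjusted p = 4.2e-05, edgeR). Snhg5 fell from 28.3 to 17.7 CPM (-0.67, SE 0.069) and Snhg20 from 12.4 to 6.66 CPM (-0.90, SE 0.095). Zfas1, which had the highest mean CPM of this list in Ad-GFP and in Ad-hHIF2 libraries, went from 506 to 291 CPM (adjusted p = 0.0012, edgeR). It was named after its values were seen. Between both HIFs 12 of the 16 were also lower with Ad-hHIF2, as were 12% of all genes. Between Ad-hHIF1 and Ad-GFP 0 of 15 passed, in a comparison where 0% of all genes passed, with a median of -0.11. The 12 calls against Ad-GFP were 8 with total counts and 1 on each TPM scale. Over all genes, 2035 were called lower, but 828 with total counts, 196 on log2(TPM + 1) and 210 on log2(TPM + 0.1).

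The proteins that bind snoRNAs and build their particles gave a similar count. Of 18 snoRNP proteins and assembly factors tested, 11 fell with Ad-hHIF2 against Ad-GFP and none rose, against 13.6% of all genes that passed as lower, with a median of -0.60. Nhp2, an H/ACA core protein, fell from 23.8 to 10.8 CPM (log2 difference -1.14, SE 0.078, adjusted p = 2.3e-05, edgeR). Dkc1, the pseudouridine synthase of the same particle, fell from 16.6 to 8.13 CPM (-1.02, SE 0.099), and Nop58, a core protein of C/D particles, from 53.3 to 30.2 CPM (-0.81, SE 0.060). Against Ad-hHIF1, 11 of 18 were lower with Ad-hHIF2, as were 12% of all genes. Ad-hHIF1 against Ad-GFP, where 0% of all genes passed, gave 0 of 18 and a median of 0.085. The 11 calls against Ad-GFP were 6 with total counts, where 1 gene rose, and 0 on each TPM scale. Over all genes, 2035 were called lower, but 828 with total counts, where 3491 were called higher. On log2(TPM + 1) and log2(TPM + 0.1), 196 and 210 were called lower.

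Protein partners of Neat1 and Malat1 and decay factors went both ways with Ad-hHIF2, in a comparison where 29.5% of all genes passed, 15.9% as higher and 13.6% as lower. Of 15 paraspeckle proteins, 1 rose and 1 fell with Ad-hHIF2 against Ad-GFP, with a median of -0.11. Nudt21, a cleavage factor subunit, fell from 45.0 to 37.0 CPM (log2 difference -0.28), and Rbm14 rose from 18.6 to 24.3 CPM (0.40). Taf15, an RNA-binding protein, was at 20.5 CPM in Ad-GFP and 15.8 CPM in Ad-hHIF2 (-0.37, adjusted p = 0.0504, edgeR) and did not pass, but it passed in 9 of 19 alternatives (adjusted p from 0.0146 to 0.982 over all of them). Over the alternatives 0 to 2 genes of the paraspeckle list fell. Of 17 nuclear speckle and SR proteins, 1 rose and 3 fell, with a median of -0.074. Srsf2, a splicing factor, fell from 73.6 to 50.8 CPM (-0.53, adjusted p = 0.0029, edgeR), and Mettl16, a methyltransferase that binds the triple helix at the Malat1 3′ end, fell from 21.7 to 15.8 CPM (-0.45). Son, a scaffold of the speckle, rose from 156 to 193 CPM (0.31). The nonsense-mediated decay factors, which act on spliced snoRNA hosts, split into 2 higher, 2 lower and 13 not passed of 17, with a median of 0.048. Among them Xrn1, a 5′ exonuclease, rose from 19.99 to 26.3 CPM (0.40), Smg9 fell from 13.1 to 9.29 CPM (-0.49) and Smg5 from 68.8 to 56.1 CPM (-0.29). On other scales the median of all genes moved, to 0.24 with total counts, 0.12 on log2(TPM + 1) and 0.30 on log2(TPM + 0.1). With total counts 1 paraspeckle protein, 3 speckle and SR proteins and 4 decay factors rose and none fell, with medians of 0.16, 0.19 and 0.30. Of all 14987 genes, 3491 were then called higher and 828 lower. On the TPM scales no gene of these lists passed, with medians of 0.23, 0.20 and 0.18 on log2(TPM + 1) and 0.36, 0.29 and 0.39 on log2(TPM + 0.1). Over all genes, 814 were called higher and 196 lower on log2(TPM + 1), and 899 and 210 on log2(TPM + 0.1). The differences of Nudt21, Taf15, Mettl16, Smg9 and Smg5 turned positive on both TPM scales. They lay below the median of all genes on these scales (0.12 and 0.30), except Nudt21 on log2(TPM + 1) (0.13). Several of these calls were lost when 1 library was left out. Without Ad-GFP replicate 1 the adjusted p (edgeR) was 0.052 for Nudt21, 0.079 for Rbm14, 0.062 for Son, 0.061 for Smg9 and 0.054 for Smg5. Without Ad-GFP replicate 3 it was 0.114 for Rbm14, 0.067 for Son and 0.060 for Smg9. Without Ad-hHIF2 replicate 1 it was 0.054 for Nudt21, 0.109 for Rbm14, 0.060 for Smg9 and 0.079 for Smg5. Without Ad-hHIF2 replicate 3 it was 0.059 for Nudt21 and 0.058 for Smg5, and without Ad-hHIF2 replicate 4 it was 0.078 for Rbm14 and 0.070 for Smg9. With Ad-hHIF1 against Ad-GFP, where 0% of all genes passed, none of the genes of these 3 lists passed.

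**Figure D5:**
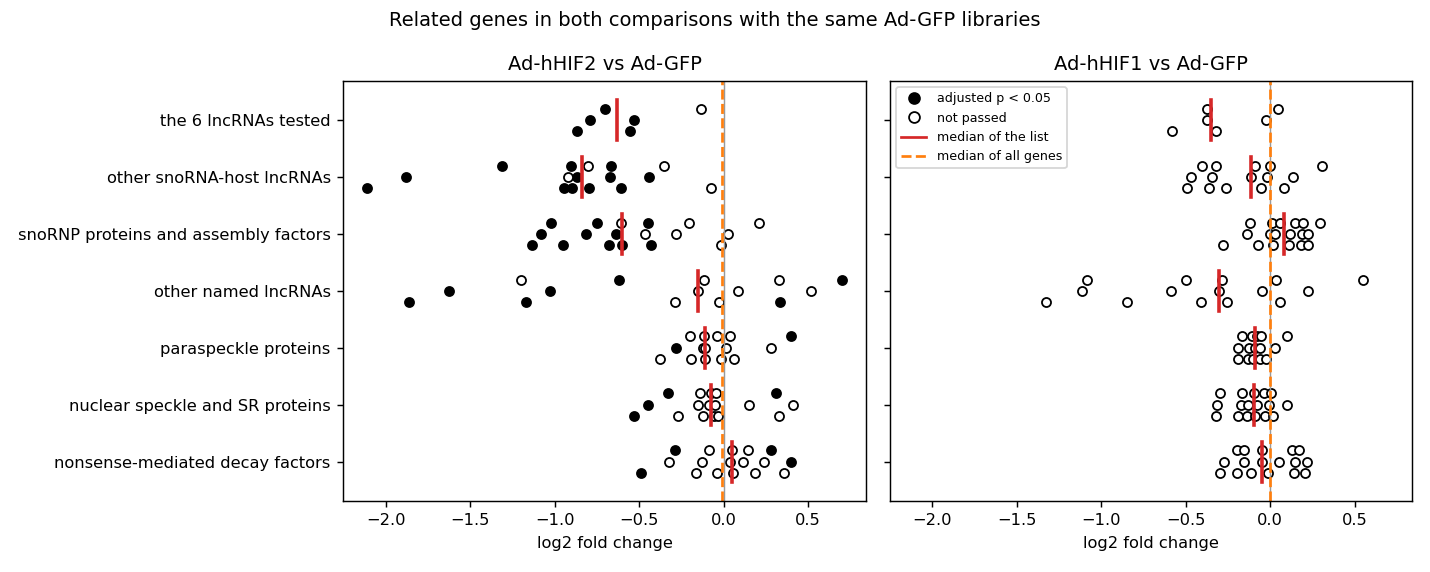
Log2 differences (horizontal axis) of the lncRNAs and 6 related gene lists for Ad-hHIF2 and Ad-hHIF1 against the same Ad-GFP libraries, with 1 point per tested gene, filled where the adjusted p was below 0.05, the list median in red and the median of all genes dashed. With Ad-hHIF2 the medians of the other snoRNA hosts (-0.84) and the snoRNP proteins (-0.60) lie left of those of the nuclear body lists (-0.11 and -0.074).

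Other named lncRNAs went both ways with Ad-hHIF2. Of 15 tested of 22 listed, 2 rose, 5 fell and 8 did not pass, where 15.9% of all genes passed as higher and 13.6% as lower, with a median of -0.15. With total counts 4 rose and 3 fell (median 0.086), and on log2(TPM + 1) and log2(TPM + 0.1) 1 rose and 0 fell (medians 0.033 and 0.18), while the median of all genes was 0.24, 0.12 and 0.30. Over all genes, 3491 were called higher and 828 lower with total counts, 814 and 196 on log2(TPM + 1), and 899 and 210 on log2(TPM + 0.1). Pvt1, a neighbour of Myc, fell from 23.4 to 10.4 CPM (log2 difference -1.17, SE 0.084, adjusted p = 3.1e-05, edgeR), and Mir17hg, the host of the miR-17 cluster, fell from 4.39 to 1.42 CPM (-1.63, SE 0.189). Airn, the imprinted antisense RNA at Igf2r, rose from 13.7 to 22.3 CPM (0.70, SE 0.092, adjusted p = 0.00079, edgeR). Like Kcnq1ot1, Airn is a long unspliced RNA, but the 2 moved in opposite directions here.

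Genes around the lncRNAs passed the test in a share near that of all genes, which was 29.5%. Of the 12 imprinted neighbours of H19 and Kcnq1ot1, 6 could be tested between Ad-hHIF2 and Ad-GFP and 1 fell. This was Phlda2, a placental growth regulator that Kcnq1ot1 is known to silence, which went from 7.12 to 2.55 CPM (log2 difference -1.47, SE 0.266, adjusted p = 0.0040, edgeR). Cd81 was at 92.3 and 106 CPM (0.20, adjusted p = 0.067) and Tssc4 at 5.77 and 7.37 CPM (0.36, adjusted p = 0.167) in Ad-GFP and Ad-hHIF2 organoids, and they passed only without Ad-GFP replicate 4 (Cd81, adjusted p = 0.038) and without Ad-hHIF2 replicate 1 (Tssc4, 0.046) among the fits that left out a library. Kcnq1 itself was at 0 to 0.383 CPM and Igf2, the partner of H19, was too low to test. Of 12 neighbours of the other lncRNAs, 2 rose, 2 fell and 8 did not pass. Phactr4, close to Snhg12 and Snhg3 on chromosome 4, rose from 37.7 to 97.6 CPM (1.38, SE 0.108, adjusted p = 4.6e-05, edgeR), opposite to Snhg12. Ltbp3, near Malat1 and Neat1, rose from 227 to 315 CPM (0.48, SE 0.082), and Wdr74, next to Snhg1, fell from 25.5 to 17.1 CPM (-0.57, SE 0.101). Phactr4 passed in all 19 alternatives, whereas Phlda2 and Ltbp3 did not pass on the 2 TPM scales and Wdr74 did not pass there or with total counts, with adjusted p-values up to 0.176, 0.090 and 0.869.

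Profiles most like each lncRNA were sought among 15550 genes, as the smallest root-mean-square difference between centred log2(CPM + 1) values over the 9 libraries, which share depth and scaling. Nearest to Neat1 were RP23-403P24.5 (0.0868), Rpl38 (0.099) and Unc13a (0.105), and nearest to Malat1 were Fnbp4 (0.0678), Sorcs2 (0.0684) and Rbm25 (0.072). Gas5 was most like Ebna1bp2 (0.0665), Aprt (0.0693) and Cct6a (0.0697). Snhg12 was most like Abhd11 (0.0675), Snhg6 (0.0783) and Aen (0.0948), so that another snoRNA host was among the nearest. Snhg3 was nearest to Zkscan7 (0.0849), Fgfbp3 (0.108) and Gm26804 (0.12), and Kcnq1ot1 to Gm37607 (0.0885), Gm28262 (0.0894) and 9530026P05Rik (0.11). The SD of the lncRNA's own values on this scale was 0.331 for Neat1, 0.242 for Malat1, 0.293 for Gas5, 0.36 for Snhg12, 0.24 for Snhg3 and 0.56 for Kcnq1ot1. RP23-403P24.5 (0.943 CPM on average), Zkscan7 (0.59) and Fgfbp3 (0.312) are genes of few reads, for which adding 1 damps the variation, so their distances say little about likeness. These are descriptions of the 9 libraries, and none is given for H19, whose level was at the background.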

How the data were processed

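RNA of 9 duodenal organoid cultures was sequenced. The authors quantified transcripts with RSEM after removal of low-quality reads. The deposited expected counts are not normalized, and the deposited TPM are scaled by RSEM for length and library. The deposited effective lengths, in bases, are abundance-weighted scores of each gene's transcripts. Aligner, genome build, annotation, strandedness and versions are not given in the sources used here. Of the 46517 gene identifiers, 46005 matched GENCODE M21 (GRCm38), which gave all gene positions. Kcnq1ot1 is longer in that annotation than in the tables.

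For the tests, expected counts were rounded to integers and genes with few reads were left out by filterByExpr. Library sizes were scaled with TMM factors, and edgeR 4.0.16 (R 4.3.3, with limma 3.58.1) gave quasi-likelihood p-values. These were adjusted over all tested genes after Benjamini and Hochberg, with a call at an adjusted p below 0.05. The 6 libraries of a HIF and Ad-GFP made up each control comparison, and the direct comparison of the HIFs used the spread of all 9 libraries. A call that also needed 2-fold, DESeq2 1.42.0, limma on log2(TPM + 1) and log2(TPM + 0.1), other filters and scalings, the replicate block, a background covariate, background subtraction and each library left out were alternatives. A library size without the 20 most counted genes was added after the data were seen. H19 ratios are of summed counts with 95% exact Clopper-Pearson intervals, since it did not pass the count filter. Total counts per library ran from 21722618 to 51119041.

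The lncRNAs and all gene lists were chosen with earlier results of these data known, so their values are descriptions and no independent support. Besides the lncRNAs, the genes named are the 3 of each list with the smallest p in Ad-hHIF2 against Ad-GFP (of the markers of stem and other cell types, given as sums, only those that passed), the snoRNAs inside the hosts, the 3 most similar profiles of each lncRNA, and Epas1 and Hif1a. Zfas1, Olfm4, Igf2, Kcnq1, Mir675, Zbtb37, Rcc1 and Gm17300 were named outside this rule after their values were seen. So were Krt8, Krt18, Krt19, Vil1, Cldn7, Cdx2 and Pdx1. One gene of the paraspeckle list is not reported here, and the list is given without it. The test was tried on simulated counts with 200 changed genes, drawn once per comparison and from the better covered genes only. For Ad-hHIF2 against Ad-GFP, on 14688 genes, it recovered 83% of changes of 1 and 99% of changes of 2 on the log2 scale. For Ad-hHIF1 against Ad-GFP, on 14821 genes, it recovered 66% and 94%. Of the calls, 6.67% and 9.60% were false, against the 5% aimed at. Changes below 1 on the log2 scale, which all tested lncRNAs had in the main fits, were not simulated.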

Additional observations from a re-analysis of the deposited data

How the results depend on the processing

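Fold changes of single genes and the number of genes that fell in each list were recomputed under 19 alternatives per comparison. Of 912 such values, 738 kept their direction and their side of the threshold or, for a number of genes, stayed within 1.5 times, 89 kept the direction but no longer passed, 19 passed only under the alternative, 33 numbers of genes moved by more than 1.5 times and 33 fold changes turned sign. The number of genes called in Ad-hHIF2 against Ad-GFP was 1009 when a 2-fold change was also required, 1010 on log2(TPM + 1) and 1109 on log2(TPM + 0.1), and 3074 to 4539 with 1 library left out. Of the lncRNAs, 0, 0 and 0 passed under the first 3 of these and 2 with total counts, and 5 in each fit with 1 library left out. In Ad-hHIF1 against Ad-GFP, 384 genes were called without a count filter, 144 with DESeq2, 7 with all 9 libraries in 1 fit and 7 with the background covariate, with 1, 2 and 1 of the lncRNAs in the first 3, and 0 genes and 0 lncRNAs with any library left out. In Ad-hHIF2 against Ad-hHIF1, 951 genes passed with a 2-fold change, 367 on log2(TPM + 1), 460 on log2(TPM + 0.1) and 2398 with the background covariate, and 2594 to 3624 with 1 library left out. There, 0, 0 and 0 lncRNAs passed under the first 3, 1 with total counts, and 1 to 3 with 1 library left out, the 1 being reached without Ad-hHIF2 replicate 1 or 4. Snhg3 turned sign in Ad-hHIF2 against Ad-GFP with total counts (0.094), on log2(TPM + 1) (0.18) and log2(TPM + 0.1) (0.26), without Ad-GFP replicate 3 (0.082), without Ad-hHIF2 replicate 1 (0.016) and with the background covariate (0.080), and ran from -0.29 to 0.082 with 1 library left out. Gas5 turned sign in Ad-hHIF1 against Ad-GFP with total counts (0.061), on both TPM scales (0.21 and 0.21), without Ad-GFP replicate 1 (0.013), without Ad-hHIF1 replicate 3 (0.049), with the covariate (0.0103) and with a library size without the 20 most counted genes (0.0064), and ran from -0.080 to 0.049 with 1 library left out. Kcnq1ot1 turned sign in Ad-hHIF1 against Ad-GFP with the replicate block (-0.063), without Ad-GFP replicate 1 (-0.036), without Ad-hHIF1 replicate 3 (-0.41) and with the covariate (-0.33), and ran from -0.41 to 0.33 with 1 library left out. Between both HIFs Neat1 turned to 0.049 with total counts and to 0.092 and 0.094 on the TPM scales, and Malat1 to 0.021, 0.0014 and 0.0013. In Ad-hHIF2 against Ad-GFP, log2(TPM + 1) and log2(TPM + 0.1) gave 0.13 and 0.17 for Nudt21, 0.025 and 0.021 for Taf15, 0.036 and 0.060 for Mettl16, 0.041 and 0.065 for Smg9 and 0.060 and 0.069 for Smg5. The cause of these changes was not tested. Samples with the same replicate number did not deviate together in every pair (r from 0.082 to 0.25 for Ad-hHIF2 and Ad-GFP, -0.15 to 0.18 for Ad-hHIF1 and Ad-GFP and -0.27 to -0.10 for both HIFs), so the pairing was not established. With the replicate block 4631, 0 and 3638 genes were called in the 3 comparisons, and Kcnq1ot1 lost its call between both HIFs (-0.85, adjusted p = 0.051, edgeR). H19, with 1 to 9 counts, was at or near the background and did not pass the count filter. Snhg3, with at least 80.1 counts, was the least covered of the tested lncRNAs.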
